A study of Mus musculus with 77 samples.

Results

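The 7 pericyte control libraries were compared with the control libraries of the other cell types of mouse cerebral white matter, to describe how the RNA of pericytes differs at baseline from that of their neighbours. They were chosen by their labels alone (cell type pericyte, condition control) out of 77 libraries in the series, and were set against 5 EC control, 6 OPC control and 6 astrocyte control libraries, pooled with equal weight for each type and also 1 type at a time. All 24 libraries were labelled as controls from mouse cerebral white matter, and the stroke and microglia libraries of the series were not used. The labels give cell type, tissue and condition, and not strain, age, sex, number of animals or how the cells were isolated. Nothing in them says that libraries of a group came from separate animals, so the p-values measure the spread between these libraries only. EC and OPC are kept as the labels write them.

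Pericytes are mural cells that sit inside the basement membrane of capillaries and touch the endothelium. Endothelial PDGF-B holds them there through the receptor Pdgfrb, and they help to set capillary diameter, lay down basement membrane and maintain the blood-brain barrier. Brain pericytes are commonly told from smooth muscle cells by ATP-sensitive potassium channel genes and low contractile protein genes, and from perivascular and meningeal fibroblasts by low fibrillar collagen and decorin genes.

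RNA was sequenced with a low-input full-length kit, and reads were counted per gene by the authors. The pericyte controls held 47422629 to 66498374 counts per library, against 64305822 to 134742841 in EC, 54752585 to 70845264 in OPC and 43367636 to 64557642 in astrocyte controls, so that counting error is small for all but the rarest genes. Levels below are in CPM, the field's usual scaling of counts to a common library total, here after adjusting totals by trimmed means of M-values. Differences are log2 fold changes from the quasi-likelihood fit of edgeR, pericyte minus other, and a gene was called at an adjusted p under 0.05. Each type was counted in a table of its own, so cell type and table cannot be told apart. In bulk libraries, fewer cells of a type and less RNA per cell cannot be told apart either. Pericyte control 6 stood apart from the other 6 pericyte libraries, and control 8 in its microglial genes. Many results that rest on control 6 are given with and without it, though not all.

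The label was first checked against Pdgfrb, Rgs5 and Kcnj8. All 3 were higher in every pericyte control than in any of the 17 other libraries. Levels here and below are the lowest, the median and the highest library of a group of 6 or 7, and all libraries of the group of 5. Pdgfrb, the PDGF-B receptor (chr18:61045150-61085061, plus strand, GRCm38), had 447, 691 and 958 CPM in pericyte controls. EC controls had 3.34, 6.75, 1.56, 1.86 and 2.61 CPM, OPC controls 21.9, 43.5 and 80.9 CPM and astrocyte controls 32.9, 62.9 and 77.6 CPM. Its highest non-pericyte library was an OPC control, and the EC controls were lowest. Against the types pooled, Pdgfrb differed by 5.05 ± 0.24 (SE; adjusted p = 5.72e-15) on the log2 scale, with 7.73 against EC, 3.90 against OPC and 3.53 against astrocyte controls.

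Rgs5, a regulator of G-protein signalling that shortens signals from vasoactive receptors, had 659.9, 1363 and 2422 CPM in pericyte controls. EC controls had 16.8, 12.0, 19.5, 17.2 and 19.9 CPM, OPC controls 60.1, 78.1 and 100.3 CPM and astrocyte controls 3.86, 4.49 and 9.06 CPM. All libraries of the other types were below the lowest pericyte library, and the OPC controls were the next highest group. Rgs5 had a pooled log2 fold change of 6.25 ± 0.19 (SE; adjusted p = 1.3e-18), with 6.45 against EC, 4.21 against OPC and 8.10 against astrocyte controls. Kcnj8, which encodes the pore subunit of the vascular ATP-sensitive potassium channel, had 178, 585 and 895 CPM in pericyte controls. EC controls had 2.05, 1.44, 1.73, 1.16 and 0.642 CPM, OPC controls 36.2, 42.5 and 56.9 CPM and astrocyte controls 0.531, 1.07 and 1.49 CPM. EC and astrocyte controls were far below OPC controls for Kcnj8, and all were below the lowest pericyte library. Its log2 fold change was 7.04 ± 0.24 (SE; adjusted p = 1.24e-17) pooled, with 8.56 against EC, 3.60 against OPC and 8.95 against astrocyte controls. Pericyte control 6 was lowest of the 7 for Rgs5 and Kcnj8, at 659.9 and 178 CPM, and control 14 was highest for all 3 genes.

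**Figure D1:**
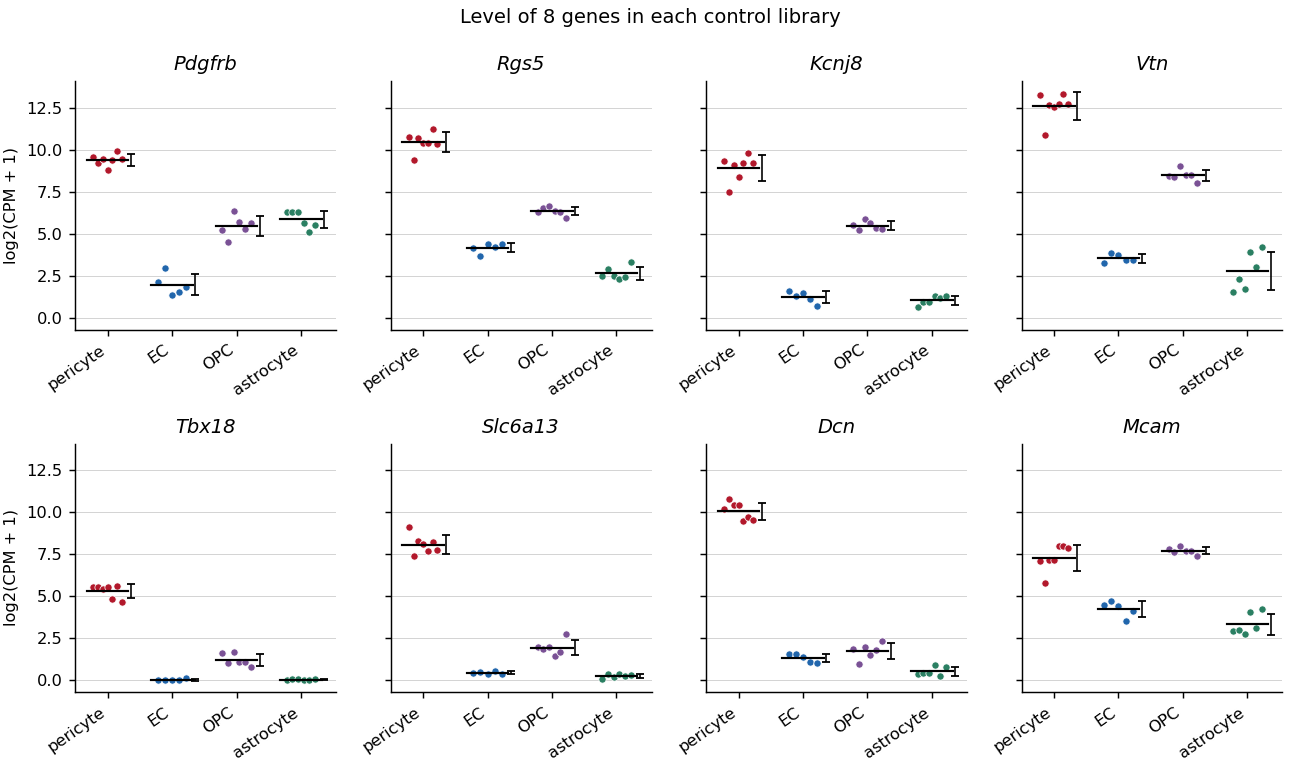
Level of 8 genes as log2(CPM + 1) in each of the 24 control libraries, by cell type. Points are libraries, the horizontal line is the group mean and the bar beside it the SD (n = 7 pericyte, 5 EC, 6 OPC, 6 astrocyte). Pdgfrb, Rgs5, Kcnj8, Vtn, Tbx18, Slc6a13 and Dcn had all 7 pericyte libraries above all 17 others, and the Mcam levels of pericyte and OPC libraries overlapped.

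Across all genes the groups were far apart, so single calls carry little weight by themselves. Of 23060 genes tested, 14788 (64.1%) were called against the 3 types pooled, 8731 of them higher in pericyte controls (37.9%) and 6057 lower (26.3%). Higher calls made up 59.0% of all calls, but 79.5% with scaling by library totals alone and 69.3% with no filter on low counts. Against EC controls 59.7% were called, 33.6% higher and 26.1% lower. Against OPC controls 69.2% were called, 42.0% higher and 27.2% lower, and against astrocyte controls 50.0%, 26.5% higher and 23.5% lower. The 3 single comparisons share the 7 pericyte libraries and are not independent of each other. A stricter count was therefore used for the gene groups below: a gene was higher, or lower, than each type when it was called with a log2 fold change of at least 1 in that direction in all 3 single comparisons. In all, 2513 genes (10.9%) were higher than each type and 358 (1.55%) lower than each. All 7 pericyte libraries lay above all 17 others for 935 genes (4.05%) and below them for 556 (2.41%), so that 6.47% of genes did not overlap in either direction. The median log2 fold change of all genes tested was 0.21 against the types pooled, 0.20 against EC, 0.46 against OPC and 0.22 against astrocyte controls. The pooled median was 0.64 with library totals alone, and differences near these medians carry no direction.

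Of the wider list of 14 pericyte markers, all 14 were called higher against the types pooled, with a median log2 fold change of 6.54, and 13 were higher than each type with no overlap of the groups. Among all genes, 37.9% were called higher, 10.9% were higher than each type and 4.05% had all 7 pericyte libraries above all 17 others. Vtn, which encodes the matrix glycoprotein vitronectin, had 1858, 6808 and 10320 CPM in pericyte controls. EC controls had 8.47, 13.2, 12.3, 9.68 and 9.69 CPM, OPC controls 256, 349 and 525 CPM and astrocyte controls 1.90, 5.53 and 17.3 CPM. Every pericyte library was above every other, and control 6 was the lowest pericyte library. The log2 fold change was 7.79 ± 0.35 (SE; adjusted p = 2.53e-15) pooled. It was 9.33 against EC, 4.25 against OPC and 9.80 against astrocyte controls. Atp13a5, a P-type ATPase gene used to mark brain pericytes in mice, averaged 535 ± 240.0 CPM in pericyte controls, against 1.59 ± 0.649 in EC, 37.9 ± 11.9 in OPC and 2.09 ± 1.93 in astrocyte controls (SD). Anpep, the aminopeptidase CD13 of pericyte membranes, averaged 30.6 ± 9.25 CPM in pericyte controls, against 0.173 ± 0.0850 in EC, 1.71 ± 0.460 in OPC and 0.0587 ± 0.0789 in astrocyte controls (SD). The exception was Mcam, the adhesion molecule CD146, which had 54.2, 142 and 256 CPM in pericyte controls. EC controls had 21.4, 25.8, 20.3, 10.4 and 16.9 CPM, OPC controls 166, 210.2 and 257 CPM and astrocyte controls 5.65, 7.39 and 17.8 CPM. Of the 7 pericyte libraries 4 lay below the OPC range and the other 3 within it, with a log2 fold change of -0.28 (adjusted p = 0.41) against OPC, while it was higher than EC and astrocyte controls.

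The 13 markers other than Mcam differed from OPC controls by a narrow band of log2 fold changes, 3.36 to 4.25, while the same genes spanned 5.55 to 9.45 against EC and 2.96 to 9.80 against astrocyte controls. The OPC controls held the whole pericyte list at a summed 684 to 1213 CPM, against 48.8 to 72.5 CPM in EC and 76.3 to 120.3 CPM in astrocyte controls. In the pericyte controls the sum was 3919 to 17680 CPM, with control 6 lowest and the other 6 at 9770 CPM or more. The part of these OPC levels in the differences from OPC controls was not tested.

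**Figure D2:**
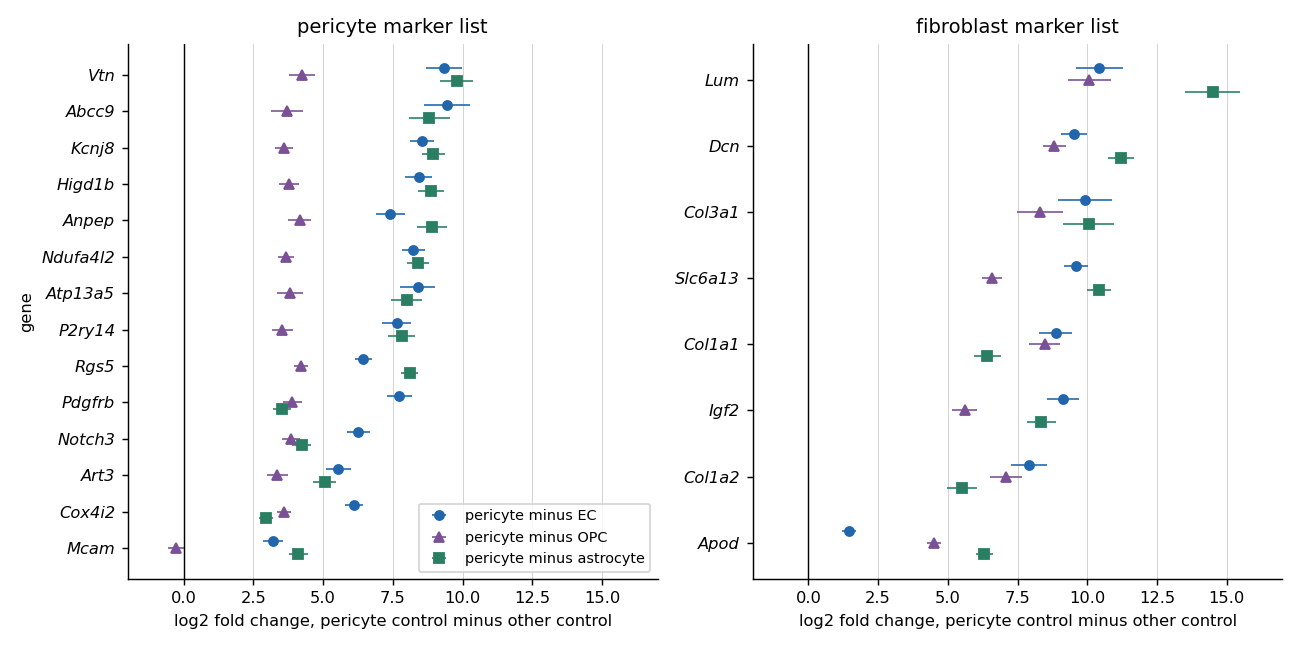
Log2 fold change of the 14 pericyte markers (left) and the 8 fibroblast markers (right), pericyte control minus EC (circles), OPC (triangles) and astrocyte controls (squares), with bars for the standard error of the fit. Against OPC controls, 13 of the pericyte markers lie between 3.36 and 4.25 and Mcam at -0.28, while the fibroblast markers lie between 4.50 and 10.07.

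The genes that set the pericyte controls furthest from each other type were mostly not pericyte markers. The 12 genes with the largest smallest-of-3 difference were Tcf21, Inmt, Lum, Slc22a6, Aldh1a2, Cpz, Dcn, Col3a1, Itih2, Aox3, Alx4 and Fam180a. Of these, 3 were in the fibroblast list and 0 in the pericyte list. Dcn, the small proteoglycan decorin that binds collagen fibrils, had 713, 1163 and 1763 CPM in pericyte controls. EC controls had 1.97, 1.92, 1.58, 1.11 and 1.07 CPM, OPC controls 0.998, 2.56 and 4.12 CPM and astrocyte controls 0.196, 0.346 and 0.907 CPM. All pericyte libraries were above all others, and control 6 was highest. Against the types pooled, Dcn differed by 9.86 ± 0.28 (SE; adjusted p = 5.17e-19) on the log2 scale, with 9.52 against EC, 8.82 against OPC and 11.22 against astrocyte controls. Aldh1a2, the retinoic acid-synthesising enzyme that marks meningeal fibroblasts in mice, had 104, 146 and 209.6 CPM in pericyte controls. EC controls had 0.0356, 0.662, 0.170, 0.257 and 0.260 CPM, OPC controls 0.0336, 0.188 and 0.462 CPM and astrocyte controls 0, 0.0209 and 0.401 CPM. It was near 0 in every library that was not from pericytes, and the pericyte libraries ran from control 6, the lowest, to control 5. Its log2 fold change was 9.68 ± 0.42 (SE; adjusted p = 1.3e-15) pooled.

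Slc22a6, an organic anion transporter, had 64.4, 104 and 223 CPM in pericyte controls. EC controls had 0, 0, 0, 0 and 0 CPM, OPC controls 0, 0 and 0.478 CPM and astrocyte controls 0, 0 and 0.140 CPM. EC controls had 0 counts, and the mean pericyte level of 126 CPM was at least 20693-fold higher than the floor of 3 counts over that group. Its log2 fold changes were 10.01 against OPC and 11.68 against astrocyte controls. Itih2, a chain of a hyaluronan-binding serum protein complex, averaged 87.4 ± 27.4 CPM in pericyte controls, against 0.0676 ± 0.119 in EC, 0.0794 ± 0.0618 in OPC and 0.282 ± 0.171 in astrocyte controls (SD), with a log2 fold change of 9.59 ± 0.40 (SE; adjusted p = 7.83e-16) pooled, which was 10.30 without EC control 7. Aox3, an aldehyde oxidase, ranged over 30.0 to 184 CPM in pericyte controls against at most 0.60 CPM elsewhere, and its log2 fold change of 8.73 was 9.73 without EC control 7. Fam180a ranged over 33.4 to 131 CPM against at most 0.78 CPM.

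Other genes of the 12 leaned on pericyte control 6. Tcf21, a transcription factor of mesenchymal progenitors, had 401 CPM there and at most 0.604 CPM in the other 6 pericyte libraries, so that its groups overlapped. No fitted difference is given for it, since EC controls held 2 counts in all. Inmt, an N-methyltransferase, had 1753 CPM in control 6 and 23.8 to 216 CPM in the others, and its pooled log2 fold change of 10.78 was 9.21 without control 6. The matching values were 9.42 and 7.50 for Cpz (carboxypeptidase Z, 10.10 without EC control 11), 8.40 and 6.42 for Alx4 (a homeobox factor), and 11.67 and 11.02 for Lum (the keratan sulfate proteoglycan lumican). Without control 6 the same ranking kept 9 of the 12 genes and took in Col13a1, Scara5 and Slc6a13.

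All 8 fibroblast markers were higher than each type, with a median log2 fold change of 8.39 pooled, and for 7 the groups did not overlap. Of all genes, 10.9% were higher than each type and 4.05% had all 7 pericyte libraries above all 17 others. Col1a1, a chain of type I collagen, averaged 183 ± 111 CPM in pericyte controls, against 0.377 ± 0.238 in EC, 0.519 ± 0.405 in OPC and 2.15 ± 0.469 in astrocyte controls (SD). Col1a2, the other chain, averaged 574 ± 229 CPM in pericyte controls, against 2.42 ± 1.74 in EC, 4.25 ± 1.12 in OPC and 12.6 ± 3.85 in astrocyte controls (SD). Col3a1 of type III collagen varied among pericyte libraries, at 91.6, 152 and 775 CPM, with control 8 highest. Igf2, an insulin-like growth factor, averaged 306 ± 88.5 CPM in pericyte controls, against 0.546 ± 0.206 in EC, 6.30 ± 1.72 in OPC and 0.937 ± 1.13 in astrocyte controls (SD). Apod, which encodes apolipoprotein D, overlapped: it had 2823, 6200 and 10020 CPM in pericyte controls. EC controls had 3093, 2434, 1816, 1464 and 2351 CPM, OPC controls 249.9, 265 and 305 CPM and astrocyte controls 56.0, 78.9 and 92.5 CPM. The lowest pericyte library for Apod was control 6, below the highest EC library, and the EC controls stood well above OPC and astrocyte controls. The summed fibroblast list reached 6080 to 13300 CPM in pericyte controls, against 1471 to 3098 CPM in EC, 264 to 318 CPM in OPC and 71.8 to 108 CPM in astrocyte controls. It was highest in pericyte controls 5, 8 and 9, and the part of fibroblast RNA in the pericyte differences was not tested.

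Kcnj8 and Abcc9, which encodes the SUR2 sulphonylurea receptor that joins the Kcnj8 pore in vascular potassium channels, are neighbours on chromosome 6. Kcnj8 lies at chr6:142564837-142571614, minus strand and Abcc9 at chr6:142587862-142702315, minus strand (GENCODE M21 on GRCm38), with 16247 bases and 0 protein-coding genes between them. Rgs5 and Rgs4, another regulator of G-protein signalling, are neighbours on chromosome 1, at chr1:169655501-169695813, plus strand and chr1:169741477-169747642, minus strand, 45663 bases apart. Each pair differed from the other types in the same direction, so their promoters are shown from 250 bases before to 50 after the annotated start, 5′ to 3′ on the gene's strand (RefSeq, GRCm38.p6). Capitals mark TGGGAA in Kcnj8 and Abcc9, the core bound by the Notch effector RBPJ, and the TATA box TATAAA in Rgs4.
Kcnj8 promoter, chr6:142571565-142571864, minus strand: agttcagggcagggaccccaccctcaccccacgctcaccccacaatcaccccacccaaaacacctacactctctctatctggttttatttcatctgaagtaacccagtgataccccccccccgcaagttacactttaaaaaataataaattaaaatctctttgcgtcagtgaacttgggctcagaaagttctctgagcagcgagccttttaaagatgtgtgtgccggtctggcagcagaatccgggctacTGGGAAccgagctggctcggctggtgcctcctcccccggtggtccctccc
Abcc9 promoter, chr6:142702225-142702524, minus strand: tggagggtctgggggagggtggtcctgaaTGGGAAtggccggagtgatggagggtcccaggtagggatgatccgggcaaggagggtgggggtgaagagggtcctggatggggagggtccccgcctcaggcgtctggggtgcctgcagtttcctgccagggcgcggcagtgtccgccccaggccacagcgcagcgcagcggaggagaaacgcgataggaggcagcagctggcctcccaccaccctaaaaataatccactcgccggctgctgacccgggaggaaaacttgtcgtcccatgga
Rgs5 promoter, chr1:169655251-169655550, plus strand: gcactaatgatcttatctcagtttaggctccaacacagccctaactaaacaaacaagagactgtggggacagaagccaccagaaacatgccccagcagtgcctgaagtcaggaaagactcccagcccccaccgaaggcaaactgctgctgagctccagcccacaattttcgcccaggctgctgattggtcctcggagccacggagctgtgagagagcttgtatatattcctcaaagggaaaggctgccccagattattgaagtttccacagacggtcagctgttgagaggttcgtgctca
Rgs4 promoter, chr1:169747593-169747892, minus strand: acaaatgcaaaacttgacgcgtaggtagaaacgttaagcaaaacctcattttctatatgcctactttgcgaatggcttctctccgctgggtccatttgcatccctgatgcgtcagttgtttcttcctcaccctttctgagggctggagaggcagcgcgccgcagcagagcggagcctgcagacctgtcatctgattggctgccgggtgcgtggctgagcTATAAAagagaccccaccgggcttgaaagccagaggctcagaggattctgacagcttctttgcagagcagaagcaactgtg
TGGGAA was searched on both strands. It occurred 1 time in the Kcnj8 window, beginning at the start site itself, 1 time in the Abcc9 window, 221 bases upstream, and 0 times in the Rgs5 and Rgs4 windows. The same letters were in 25.6% of 32851 mouse promoter windows of that length, so a match is common. TATAAA, searched on the gene's strand, began 31 bases upstream of the Rgs4 start and was in 8.32% of windows. The forkhead core GTAAACA (3.65% of windows) and the CArG box of serum response factor (1.63%) were searched on both strands and had 0 matches in these 4 windows.

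Abcc9 had 94.6, 251 and 335 CPM in pericyte controls. EC controls had 0.449, 0.0294, 1.03, 0.0428 and 0.0764 CPM, OPC controls 13.3, 15.4 and 29.7 CPM and astrocyte controls 0, 0.561 and 1.05 CPM. Its pattern was that of Kcnj8: pericyte libraries well above the others, OPC controls in between, and EC and astrocyte controls near 0. Abcc9 had a pooled log2 fold change of 7.32 ± 0.44 (SE; adjusted p = 6.92e-13), with 9.45 against EC, 3.70 against OPC and 8.81 against astrocyte controls. Rgs4 had 218, 973 and 1567 CPM in pericyte controls. EC controls had 179, 288, 185, 177 and 166 CPM, OPC controls 65.1, 90.1 and 105 CPM and astrocyte controls 78.0, 101 and 128 CPM. It was expressed in every group, and pericyte control 6 lay within the range of the EC controls. Its log2 fold change was 2.97 ± 0.20 (SE; adjusted p = 5.67e-12) pooled, with 2.26 against EC, 3.43 against OPC and 3.22 against astrocyte controls.

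Genes with a close paralogue allowed the balance within a pair to be set out per exon length, as a description with no test. Ndufa4l2, an isoform of a cytochrome c oxidase subunit that is induced by hypoxia, made up 62.8 ± 17.3% of Ndufa4l2 and Ndufa4 in pericyte controls (SD, n = 7), against 0.119 ± 0.047% in EC, 5.81 ± 1.28% in OPC and 0.278 ± 0.205% in astrocyte controls. The lowest pericyte library was control 6 at 27.3%, still above all others. Both members differed. Ndufa4l2 averaged 146 ± 54.9 CPM in pericyte controls, against 0.482 ± 0.169 in EC, 11.4 ± 1.87 in OPC and 0.430 ± 0.252 in astrocyte controls (SD). Ndufa4, the usual subunit, was lower than each type at 109 ± 53.1 CPM in pericyte controls, against 518 ± 57.0 in EC, 239 ± 50.4 in OPC and 218 ± 67.0 in astrocyte controls (SD). Ndufa4 differed by -2.25 (adjusted p = 1.81e-07) against EC and -1.13 (adjusted p = 0.000423) against OPC controls on the log2 scale, and against astrocyte controls it was just past the smallest difference counted. Cox4i2, the hypoxia isoform of subunit 4 of the same enzyme, held 21.8 ± 7.70% of Cox4i2 and Cox4i1 in pericyte controls, against 0.158 ± 0.035% in EC, 1.57 ± 0.44% in OPC and 1.94 ± 0.22% in astrocyte controls. Higd1b held 88.2 ± 6.99% of Higd1b and Higd1a, hypoxia-inducible domain family genes, against 1.08 ± 0.42%, 34.7 ± 3.32% and 1.18 ± 1.02% in EC, OPC and astrocyte controls.

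Among channel subunits, Kcnj8 held 99.1 ± 0.51% of Kcnj8 and Kcnj11 in pericyte controls, against 8.63 ± 3.26% in EC, 96.5 ± 1.42% in OPC and 20.0 ± 6.50% in astrocyte controls. Abcc9 held 96.9 ± 0.97% of Abcc9 and Abcc8, against 2.55 ± 2.64%, 93.7 ± 3.43% and 4.72 ± 3.64%. Kcnj11 and Abcc8, the pore and receptor of the beta-cell type of channel, were not called against the types pooled, at log2 fold changes of -0.15 (adjusted p = 0.51) and 0.49 (adjusted p = 0.17). Kcnj11 changed sign under scaling by library totals alone and Abcc8 with the 17 libraries as 1 group. Rgs5 held 53.3 ± 6.89% of Rgs5 and Rgs4 in pericyte controls and 38.5 ± 6.04% in OPC controls, against 5.85 ± 1.83% in EC and 3.69 ± 1.87% in astrocyte controls.

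**Figure D3:**
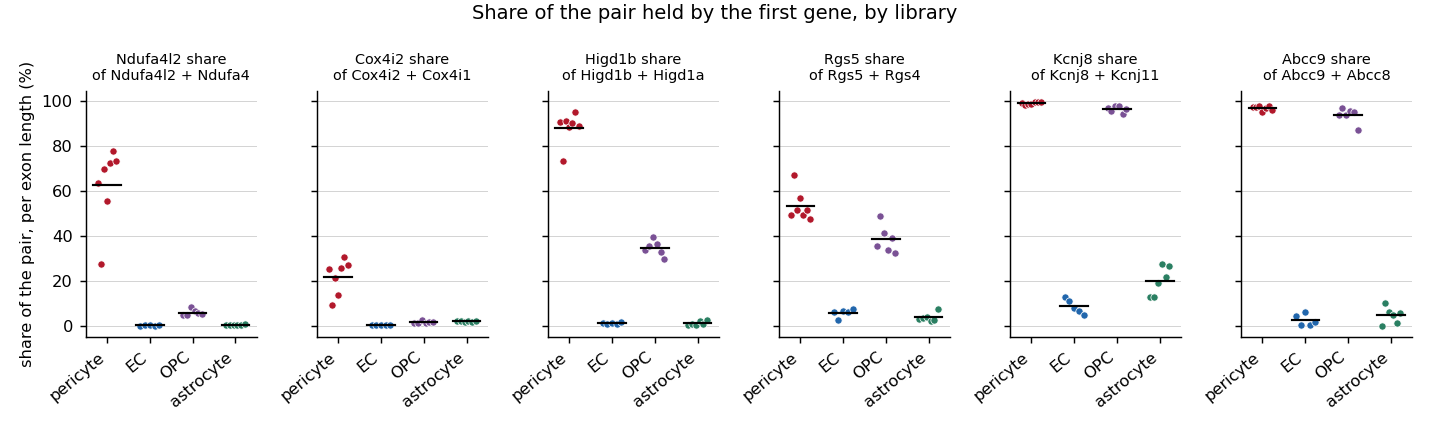
Share of each gene pair held by the first gene, in percent of the pair's counts per exon length, in each control library (points; lines are group means). Pericyte libraries hold 27.3 to 77.9% of the Ndufa4l2 and Ndufa4 pair as Ndufa4l2, while no EC, OPC or astrocyte library is above 8.12%. The Kcnj8 and Abcc9 shares of the OPC libraries lie close to those of the pericyte libraries.

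Of 17 transcription factors of mural cells, 16 were tested, 15 were called higher against the types pooled and 11 were higher than each type with no overlap of the groups. The median log2 fold change was 4.69. Without control 6, 14 were called higher and 11 were higher than each type. Of all genes, 37.9% were called higher, 10.9% were higher than each type and 4.05% had all 7 pericyte libraries above all 17 others. Tbx18, a T-box factor that labels pericytes and smooth muscle cells across organs, had 24.2, 45.3 and 48.6 CPM in pericyte controls. EC controls had 0, 0.0147, 0, 0 and 0.122 CPM, OPC controls 0.736, 1.14 and 2.28 CPM and astrocyte controls 0, 0.0311 and 0.0788 CPM. It was all but absent from EC and astrocyte controls and low in OPC controls. The log2 fold change was 8.62 ± 0.37 (SE; adjusted p = 9.7e-16) pooled, and 10.74 against EC, 4.83 against OPC and 10.29 against astrocyte controls, and the pooled value was 9.23 without EC control 11.

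Several were forkhead factors. Foxd1, a marker of stromal progenitors of the mural lineage, averaged 123 ± 38.5 CPM in pericyte controls, against 0.212 ± 0.175 in EC, 5.49 ± 1.80 in OPC and 0.311 ± 0.172 in astrocyte controls (SD), with log2 fold changes of 9.25 against EC, 4.48 against OPC and 8.60 against astrocyte controls. Foxf2 and Foxc1, both required for normal brain pericytes in mice, are neighbours on chromosome 13 with 0 protein-coding genes between them. Foxf2 averaged 68.6 ± 15.3 CPM in pericyte controls, against 32.2 ± 4.62 in EC, 4.03 ± 1.41 in OPC and 0.441 ± 0.378 in astrocyte controls (SD), and its log2 fold change against EC, the next highest group, was 1.09 (adjusted p = 0.0097). Foxc1 averaged 182 ± 44.8 CPM in pericyte controls, against 19.7 ± 3.33 in EC, 6.64 ± 2.24 in OPC and 0.742 ± 0.339 in astrocyte controls (SD). Foxs1 averaged 31.9 CPM in pericyte controls and at most 2.64 CPM in the other groups. Nr2f2, a nuclear receptor of veins and mesenchyme, averaged 102 ± 59.9 CPM in pericyte controls, against 9.69 ± 1.29 in EC, 3.48 ± 0.970 in OPC and 0.895 ± 0.383 in astrocyte controls (SD). Control 6 was its highest library, and its pooled log2 fold change without control 6 was 4.685. Zic1, a zinc finger factor of the meninges and dorsal neural tube, averaged 31.1 ± 11.4 CPM in pericyte controls, against 4.19 ± 4.88 in EC, 1.14 ± 0.391 in OPC and 0.723 ± 0.407 in astrocyte controls (SD). Mef2c, a factor of muscle, neurons and endothelium, had log2 fold changes of -0.73 against EC, 2.48 against OPC and 0.64 against astrocyte controls. Srf, which drives contractile and growth-induced genes, had -0.13 against EC, 0.30 against OPC and 0.62 against astrocyte controls. Meox2 did not pass the filter on low counts, at no more than 0.24 CPM in any pericyte library.

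**Figure D4:**
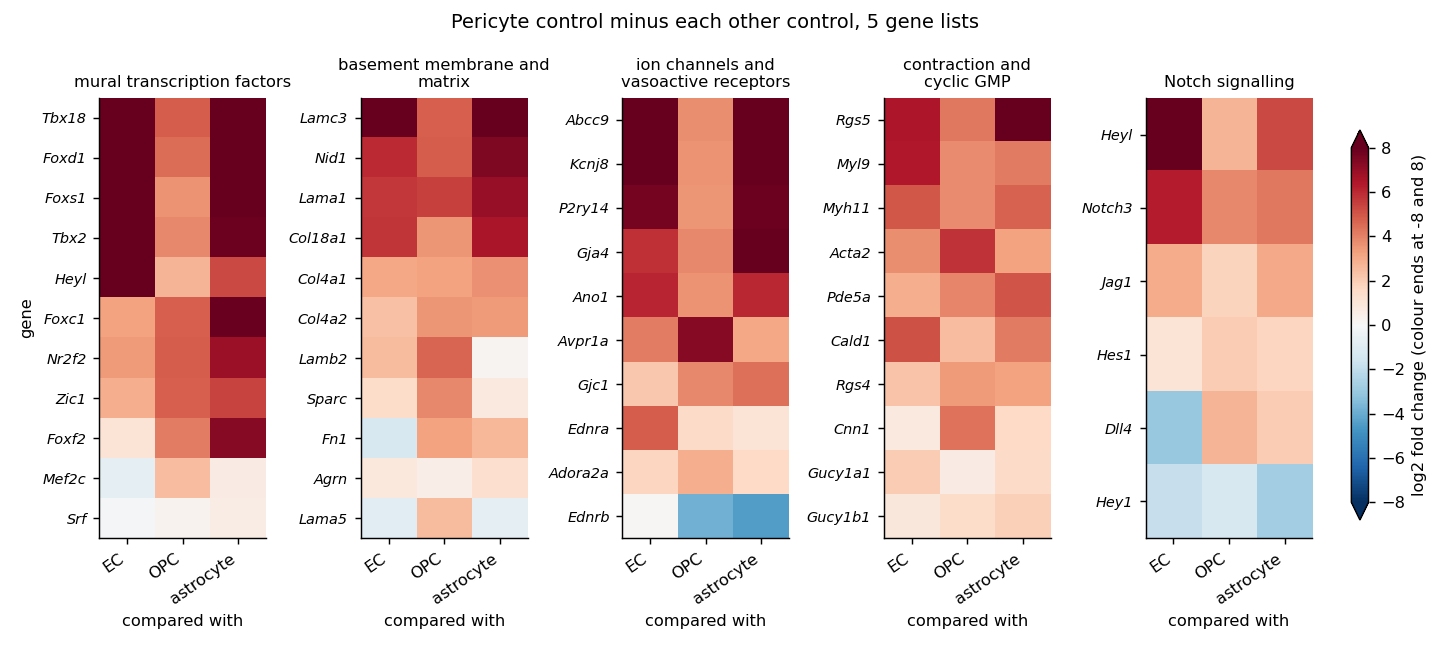
Log2 fold change of the tested members of 5 gene lists that the text names, pericyte control minus EC, OPC and astrocyte controls, ordered within a list by the pooled difference; red is higher in pericyte controls and blue lower, and colours saturate at 8 in either direction. The transcription factor list is led by Tbx18, Foxd1, Foxs1 and Tbx2, and the deepest blue is Ednrb against OPC (-3.83) and astrocyte controls (-4.47).

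Of 6 PDGF ligands and receptors, 1, the receptor Pdgfrb, was higher than each type. Its ligand Pdgfb, which endothelial cells secrete, averaged 9.93 ± 3.12 CPM in pericyte controls, against 57.5 ± 5.78 in EC, 1.76 ± 1.06 in OPC and 5.72 ± 1.33 in astrocyte controls (SD), and was lower than in EC controls, with a log2 fold change of -2.53 (adjusted p = 3.75e-08). Pdgfra, the receptor of oligodendrocyte precursors and of fibroblasts, had 104, 129 and 438 CPM in pericyte controls. EC controls had 2.37, 2.33, 2.38, 0.400 and 1.39 CPM, OPC controls 794, 1189 and 1496 CPM and astrocyte controls 7.59, 9.82 and 16.2 CPM. It stood between the OPC controls above it and the EC and astrocyte controls below it, and control 6 was the highest pericyte library. Pdgfc averaged 4.83 CPM in pericyte controls against 27.6 CPM in astrocyte controls, a log2 fold change of -2.52 (adjusted p = 3.26e-11).

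The Notch list was split between members. Of 15 genes, 8 were called higher and 4 lower against the types pooled, with a median log2 fold change of 0.65, and 4 were higher than each type: the receptor Notch3, the ligand Jag1 and the effectors Heyl and Hes1. Without control 6, 9 were called higher and 2 lower against the types pooled, and 3 were higher than each type. Of all genes, with all libraries, 37.9% were called higher, 26.3% lower and 10.9% were higher than each type. Notch3, the mural receptor whose mutations cause the small-vessel disease CADASIL in people, had 58.3, 118 and 178 CPM in pericyte controls. EC controls had 2.01, 1.23, 0.998, 0.600 and 3.07 CPM, OPC controls 5.60, 7.07 and 12.4 CPM and astrocyte controls 5.55, 5.91 and 9.37 CPM. All pericyte libraries were above all others, and control 6 was the lowest. The log2 fold change was 4.78 ± 0.22 (SE; adjusted p = 5.59e-15) pooled. It was 6.27 against EC, 3.85 against OPC and 4.23 against astrocyte controls. Heyl, a transcriptional repressor induced by Notch, averaged 182 ± 64.7 CPM in pericyte controls, against 0.453 ± 0.298 in EC, 27.2 ± 5.76 in OPC and 4.67 ± 2.14 in astrocyte controls (SD), and its pooled log2 fold change was 5.56 ± 0.32 (SE; adjusted p = 3.28e-13). Jag1 averaged 32.4 ± 7.61 CPM in pericyte controls, against 4.12 ± 0.856 in EC, 9.28 ± 4.20 in OPC and 4.00 ± 0.314 in astrocyte controls (SD). Another effector went the other way: Hey1 had 19.3, 28.1 and 33.8 CPM in pericyte controls, below every other library, and log2 fold changes of -1.82 against EC, -1.28 against OPC and -2.78 against astrocyte controls. Dll4, the ligand of arterial endothelium, had a log2 fold change of -3.04 (adjusted p = 0.0015) against EC controls.

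Of 22 TGF-beta and BMP genes, 13 were called higher and 3 lower against the types pooled, and 13 and 5 without control 6. The shares of all genes, with all libraries, were 37.9% called higher and 26.3% lower. Bmp5 and Tgfbr3 were higher than each type, a share near the 10.9% of all genes. Bmp5, a BMP ligand, averaged 13.4 ± 4.32 CPM in pericyte controls, against 0.917 ± 0.612 in EC, 0.995 ± 0.174 in OPC and 0.633 ± 0.239 in astrocyte controls (SD). Tgfbr3, the co-receptor betaglycan, averaged 65.6 ± 37.2 CPM in pericyte controls, against 21.3 ± 3.62 in EC, 3.11 ± 1.40 in OPC and 6.45 ± 1.64 in astrocyte controls (SD), and control 6 was its highest library at 143 CPM. Without control 6, Tgfbr3 differed by 2.81 pooled and 1.31 against EC controls on the log2 scale. Bmp6 was not called against astrocyte controls, at a log2 fold change of -0.43 (adjusted p = 0.18), and averaged 113 ± 42.5 CPM in pericyte controls, against 11.1 ± 3.72 in EC, 2.24 ± 0.764 in OPC and 153 ± 51.2 in astrocyte controls (SD). The Id genes, targets of BMP signalling, with control 6 the highest pericyte library for Id1 and Id3, were lower than in astrocyte controls, with log2 fold changes of -1.58 for Id1, -2.67 for Id2, -1.87 for Id3 and -3.48 for Id4. Against OPC controls Id1, Id3 and Id4 were higher, at 2.71, 3.29 and 1.64, and Id2 did not pass the test, at 0.35 (adjusted p = 0.19). Against EC controls Id1 and Id2 were lower, at -2.19 and -1.44, and Id3 and Id4 did not pass the test, at 0.22 (adjusted p = 0.61) and 0.12 (adjusted p = 0.6). Without control 6, Id3 was -2.50 against astrocyte and 2.65 against OPC controls, and Id1 was -2.12 against astrocyte, 2.16 against OPC and -2.74 against EC controls.

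Signals that pass between mural cells and endothelium were also mixed. Of 15, 5 were higher than each type, against 10.9% of all genes: Angpt2, S1pr3, Cxcl12, Ptn and Igfbp7. These 5 remained so without control 6, where Angpt2 differed from EC controls by 1.19 (adjusted p = 0.019) and Igfbp7 by 2.29 on the log2 scale. Cxcl12, the chemokine that binds Cxcr4, had 459.8, 626 and 2393 CPM in pericyte controls. EC controls had 205, 192, 127, 104 and 206 CPM, OPC controls 32.9, 54.4 and 66.0 CPM and astrocyte controls 4.50, 7.27 and 8.94 CPM. Its pericyte libraries did not overlap with others, control 6 was highest, and EC controls came next. Against the types pooled, Cxcl12 differed by 4.47 ± 0.23 (SE; adjusted p = 5.15e-14) on the log2 scale, with 2.40 against EC, 4.07 against OPC and 6.95 against astrocyte controls. Without control 6 it differed by 3.99 pooled, 1.92 against EC, 3.59 against OPC and 6.46 against astrocyte controls. Ptn, the growth factor pleiotrophin, had 1241, 3032 and 4232 CPM in pericyte controls against 277 to 483 CPM in EC, 942 to 1328 CPM in OPC and 558 to 1019 CPM in astrocyte controls, so that its lowest pericyte library overlapped with the OPC controls. The pair of sphingosine-1-phosphate receptors was divided. S1pr3, the receptor of mural cells, averaged 440.5 ± 115 CPM in pericyte controls, against 58.7 ± 11.6 in EC, 37.9 ± 8.70 in OPC and 179 ± 137 in astrocyte controls (SD). Astrocyte control 1, at 419.5 CPM, lay within the range of the pericyte libraries, 300.7 to 606.3 CPM. The difference of S1pr3 from astrocyte controls was 1.35 without pericyte control 6. S1pr1, the receptor of endothelium and astrocytes, averaged 95.1 ± 42.8 CPM in pericyte controls, against 284 ± 38.1 in EC, 29.1 ± 7.61 in OPC and 1359 ± 310.2 in astrocyte controls (SD), with log2 fold changes of -1.58 against EC, 1.71 against OPC and -3.84 against astrocyte controls. Receptors of angiopoietin and VEGF were lower than in EC controls, with log2 fold changes of -4.11 for Tek, -3.27 for Tie1, -2.55 for Kdr and -3.05 for Flt1. The same 4 were higher than in OPC controls, at 2.79 for Tek, 3.70 for Tie1, 2.23 for Kdr and 3.33 for Flt1. They were also higher than in astrocyte controls, at 1.89, 3.04, 1.94 and 2.72 in that order.

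Of 18 basement membrane and matrix genes, 17 were called higher against the types pooled, against 37.9% of all genes, and the median log2 fold change was 3.22. Higher than each type with no overlap were 13, against 10.9% and 4.05% of all genes. Lamc3, a laminin gamma chain, had 88.6, 142 and 280.3 CPM in pericyte controls. EC controls had 0.456, 0.191, 0.535, 0.528 and 1.22 CPM, OPC controls 2.51, 6.42 and 8.80 CPM and astrocyte controls 0.105, 0.279 and 1.03 CPM. Its pericyte libraries were above all others, and control 6 was highest. Lamc3 had a pooled log2 fold change of 7.24 ± 0.33 (SE; adjusted p = 3.8e-15), with 8.17 against EC, 4.78 against OPC and 8.76 against astrocyte controls. Nid1, which links laminin to type IV collagen, averaged 302 ± 91.5 CPM in pericyte controls, against 4.76 ± 1.01 in EC, 10.5 ± 4.41 in OPC and 1.71 ± 0.974 in astrocyte controls (SD). Col4a1, a chain of the main type IV collagen, averaged 193 ± 104 CPM in pericyte controls, against 22.3 ± 4.79 in EC, 21.1 ± 2.98 in OPC and 15.6 ± 3.07 in astrocyte controls (SD). Col4a2, its partner, averaged 114 ± 57.7 CPM in pericyte controls, against 22.4 ± 3.50 in EC, 9.76 ± 1.78 in OPC and 10.7 ± 2.78 in astrocyte controls (SD). For all 3 genes the groups did not overlap. Lama1 averaged 41.3 CPM in pericyte controls and at most 0.935 CPM in the other groups. Col18a1 averaged 199 CPM, with 646 CPM in control 6, and its pooled log2 fold change of 5.28 was 4.61 without that library. The members outside the count were Lamb2 and Sparc, which astrocyte controls also expressed, at differences of 0.21 (adjusted p = 0.47) and 0.79 (adjusted p = 0.0096), Agrn (0.90 pooled), Lama5, which was not called pooled (0.30, adjusted p = 0.2), and Fn1 (fibronectin), which was lower than in EC controls (-1.29, adjusted p = 0.012) and whose pooled log2 fold change of 1.53 was 0.92 without control 8.

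Of 20 ion channels and vasoactive receptors, 17 were called higher and 1 lower against the types pooled (16 and 2 without control 6). The shares of all genes, with all libraries, were 37.9% called higher and 26.3% lower. Higher than each type were 11, and for 8 of them the groups did not overlap, against 10.9% and 4.05% of all genes. P2ry14, the receptor for UDP-glucose, had 102, 301 and 562 CPM in pericyte controls. EC controls had 1.73, 1.80, 0.839, 2.08 and 1.82 CPM, OPC controls 22.3, 28.7 and 32.2 CPM and astrocyte controls 0.453, 1.16 and 3.50 CPM. Again the pericyte libraries were above all others, with OPC controls next and control 6 lowest. Its log2 fold change was 6.33 ± 0.29 (SE; adjusted p = 3.94e-15) pooled, with 7.63 against EC, 3.54 against OPC and 7.83 against astrocyte controls. The connexins join neighbouring cells electrically. Gja4 (connexin 37) averaged 202 ± 48.2 CPM in pericyte controls, against 3.56 ± 1.47 in EC, 13.8 ± 2.67 in OPC and 0.602 ± 0.327 in astrocyte controls (SD). Gjc1 (connexin 45) averaged 95.4 ± 35.2 CPM in pericyte controls, against 21.4 ± 4.73 in EC, 6.73 ± 1.14 in OPC and 4.50 ± 0.910 in astrocyte controls (SD). Ano1, the calcium-activated chloride channel that depolarises contractile mural cells, averaged 96.9 ± 42.3 CPM in pericyte controls, against 1.46 ± 1.15 in EC, 7.91 ± 2.78 in OPC and 1.49 ± 0.921 in astrocyte controls (SD).

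The endothelin receptors differed in direction. Ednra, which mediates constriction, averaged 78.2 ± 24.6 CPM in pericyte controls, against 2.70 ± 1.28 in EC, 26.9 ± 4.91 in OPC and 36.1 ± 9.87 in astrocyte controls (SD), with log2 fold changes of 4.85 against EC, 1.54 against OPC and 1.12 against astrocyte controls. Ednrb averaged 43.0 ± 10.0 CPM in pericyte controls, against 41.1 ± 16.5 in EC, 610.4 ± 72.4 in OPC and 957 ± 154 in astrocyte controls (SD), with log2 fold changes of 0.07 against EC, -3.83 against OPC and -4.47 against astrocyte controls. Adora2a, an adenosine receptor that is also abundant in striatal neurons, averaged 87.1 ± 20.9 CPM in pericyte controls, against 26.3 ± 21.6 in EC, 11.4 ± 3.02 in OPC and 29.1 ± 10.7 in astrocyte controls (SD), and the summed striatal list was 297 to 1049 CPM in pericyte controls against 639 to 2410 CPM in EC, 212 to 285 CPM in OPC and 1078 to 1821 CPM in astrocyte controls. Avpr1a, the vasopressin receptor, rested on control 6, with 47.4 CPM there and at most 2.51 CPM in the other 6 pericyte libraries, and its pooled log2 fold change was 1.51 without control 6, in place of 4.82.

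Of 18 genes of contraction and cyclic GMP, 15 were called higher against the types pooled, against 37.9% of all genes. Without control 6, 14 were. Higher than each type were 9, against 10.9% of all genes. Of 8 smooth muscle markers, 7 were called higher and 5 were higher than each, but 1 was called lower against EC and 1 against astrocyte controls. Synpo2 had 0.886 to 9.33 CPM in pericyte controls. EC controls had 8.11 to 23.1 CPM, OPC controls 0.569 to 1.66 CPM and astrocyte controls 20.9 to 39.3 CPM. Acta2, smooth muscle actin, had 87.6, 116 and 178 CPM in pericyte controls. EC controls had 10.2, 13.6, 5.51, 6.79 and 12.4 CPM, OPC controls 1.35, 2.28 and 3.51 CPM and astrocyte controls 6.82, 14.8 and 19.1 CPM. Pericyte libraries were all above the others, and OPC controls were lowest. The log2 fold change was 4.23 ± 0.19 (SE; adjusted p = 1.61e-15) pooled. It was 3.72 against EC, 5.77 against OPC and 3.19 against astrocyte controls. Myl9, a myosin light chain, averaged 805 ± 275 CPM in pericyte controls, against 9.34 ± 2.90 in EC, 58.5 ± 10.4 in OPC and 45.7 ± 13.8 in astrocyte controls (SD). Cald1 (caldesmon) averaged 798 ± 174 CPM in pericyte controls, against 23.4 ± 5.76 in EC, 141 ± 16.3 in OPC and 45.4 ± 3.05 in astrocyte controls (SD). Both were higher than each type. Des, the intermediate filament desmin of brain pericytes, averaged 77.1 ± 22.3 CPM in pericyte controls, against 0.152 ± 0.141 in EC, 5.69 ± 0.999 in OPC and 0.286 ± 0.206 in astrocyte controls (SD). Myh11, the myosin heavy chain of mature smooth muscle, averaged 11.1 ± 3.33 CPM in pericyte controls, against 0.361 ± 0.278 in EC, 0.797 ± 0.189 in OPC and 0.413 ± 0.269 in astrocyte controls (SD). Tagln (transgelin), another smooth muscle gene, averaged 1.18 ± 0.158 CPM in pericyte controls, against 0.118 ± 0.0250 in EC, 0.0698 ± 0.0446 in OPC and 0.245 ± 0.180 in astrocyte controls (SD). Cnn1, another gene of mature smooth muscle, was not called against EC controls (0.75, adjusted p = 0.26) and averaged 1.55 CPM in pericyte controls. Pde5a, which breaks down cyclic GMP, averaged 33.7 ± 10.4 CPM in pericyte controls, against 4.43 ± 1.49 in EC, 2.22 ± 0.593 in OPC and 1.03 ± 0.632 in astrocyte controls (SD), and the guanylate cyclase subunits Gucy1a1 and Gucy1b1 were higher pooled by 1.42 and 1.42 on the log2 scale.

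Of 15 solute carriers and pumps, 8 were higher than each type and 1 was lower, against 10.9% and 1.55% of all genes. Slc6a13, a GABA and taurine transporter also in the fibroblast list, had 166, 279 and 565 CPM in pericyte controls. EC controls had 0.349, 0.442, 0.292, 0.500 and 0.275 CPM, OPC controls 1.79, 2.77 and 5.69 CPM and astrocyte controls 0.0408, 0.224 and 0.314 CPM. It was near 0 in EC and astrocyte controls and low in OPC controls. Against the types pooled, Slc6a13 differed by 8.87 ± 0.25 (SE; adjusted p = 5.45e-19) on the log2 scale, with 9.60 against EC, 6.59 against OPC and 10.43 against astrocyte controls. Its neighbour on chromosome 6, Slc6a12, a betaine and GABA transporter 5342 bases away, averaged 4.20 ± 2.28 CPM in pericyte controls, against 0.00717 ± 0.0123 in EC, 0.0984 ± 0.0759 in OPC and 0.0868 ± 0.0737 in astrocyte controls (SD). Slc6a20a, a proline transporter, averaged 401 ± 154 CPM in pericyte controls, against 0.545 ± 0.384 in EC, 23.8 ± 6.03 in OPC and 0.592 ± 0.221 in astrocyte controls (SD). Slc19a1, the reduced folate carrier, averaged 388 ± 154 CPM in pericyte controls, against 17.3 ± 3.01 in EC, 65.5 ± 12.5 in OPC and 44.5 ± 10.1 in astrocyte controls (SD). All of these were higher than each type, as was Slc38a11, an amino acid transporter family gene, which averaged 99.8 ± 54.8 CPM in pericyte controls, against 0.234 ± 0.121 in EC, 8.27 ± 2.78 in OPC and 0.489 ± 0.284 in astrocyte controls (SD). Slc16a1, the monocarboxylate transporter for lactate, had 19.2, 23.7 and 38.6 CPM in pericyte controls. EC controls had 206, 174, 120.3, 119.5 and 159 CPM, OPC controls 81.1, 107 and 127 CPM and astrocyte controls 126, 204 and 294 CPM. All 7 pericyte libraries were below all 17 others, with a log2 fold change of -2.42 ± 0.18 (SE; adjusted p = 5.33e-11) pooled. The glucose transporter Slc2a1 and the efflux pumps Abcb1a and Abcg2, all genes of barrier endothelium, were lower than in EC controls, with log2 fold changes of -3.58 for Slc2a1, -4.54 for Abcb1a and -2.62 for Abcg2.

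Genes lower than each type were fewer. The 8 named by size were Dner, Shisa8, Prom1, Tmem255a, Cav2, Fxyd6, Eno1 and Cav1, and for all 8 the pericyte libraries lay below all 17 others. Dner, a transmembrane protein with EGF-like repeats, had 19.2, 25.0 and 48.5 CPM in pericyte controls. EC controls had 188, 178, 230.2, 219 and 225 CPM, OPC controls 204, 214 and 239 CPM and astrocyte controls 133, 198 and 256 CPM. The astrocyte controls held both the highest and the lowest of the 17 other libraries, and the log2 fold change was -2.88 ± 0.17 (SE; adjusted p = 5.58e-13) pooled, with -2.88 against EC, -2.94 against OPC and -2.81 against astrocyte controls. Cav1, the caveolin that shapes caveolae, averaged 18.5 ± 4.82 CPM in pericyte controls, against 153 ± 30.8 in EC, 289 ± 17.2 in OPC and 77.7 ± 34.8 in astrocyte controls (SD). Cav2, its partner, averaged 24.4 ± 5.33 CPM in pericyte controls, against 110.4 ± 21.7 in EC, 153 ± 12.1 in OPC and 232 ± 79.4 in astrocyte controls (SD). Prom1, the membrane protein prominin-1, averaged 12.1 ± 5.00 CPM in pericyte controls, against 98.3 ± 21.4 in EC, 181 ± 22.1 in OPC and 65.8 ± 7.33 in astrocyte controls (SD). Tmem255a, a transmembrane protein, averaged 3.50 ± 0.819 CPM in pericyte controls, against 16.5 ± 2.69 in EC, 119 ± 15.6 in OPC and 18.1 ± 6.12 in astrocyte controls (SD). Fxyd6, a regulator of the sodium pump, averaged 86.6 ± 38.6 CPM in pericyte controls, against 390.5 ± 19.2 in EC, 638 ± 55.6 in OPC and 437 ± 96.3 in astrocyte controls (SD). In all of these the pericyte libraries were the lowest of the 24. Shisa8, an AMPA receptor auxiliary protein, averaged 5.29 ± 1.95 CPM in pericyte controls, against 30.4 ± 3.90 in EC, 62.3 ± 10.1 in OPC and 57.0 ± 23.4 in astrocyte controls (SD). Eno1, the glycolytic enolase, averaged 393 ± 45.3 CPM in pericyte controls, against 1742 ± 118 in EC, 1663 ± 134 in OPC and 2307 ± 563 in astrocyte controls (SD), but it has near-identical copies in the genome between which reads can be split, so its level is uncertain.

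Of 12 genes of sterol and fatty acid synthesis, 10 were called lower and 0 higher against the types pooled, with a median log2 fold change of -1.45, against 26.3% of all genes called lower. Of these, 2 were lower than each type, among them Fdft1 (squalene synthase). Fdft1 had 44.0, 52.9 and 92.8 CPM in pericyte controls. EC controls had 158, 159, 172, 159 and 163 CPM, OPC controls 231, 260.4 and 271 CPM and astrocyte controls 152, 301 and 366 CPM. All 7 pericyte libraries were below all 17 others. Fdft1 had a pooled log2 fold change of -1.85 ± 0.17 (SE; adjusted p = 1.69e-09), with -1.39 against EC, -2.04 against OPC and -2.12 against astrocyte controls. Hmgcs1 averaged 90.1 ± 21.3 CPM in pericyte controls, against 162 ± 15.1 in EC, 833 ± 95.7 in OPC and 349.6 ± 95.8 in astrocyte controls (SD), and its differences were -0.84 against EC, -3.21 against OPC and -1.96 against astrocyte controls. Scd2, a desaturase abundant in myelinating cells and astrocytes, averaged 712 ± 110.4 CPM in pericyte controls, against 807 ± 139 in EC, 3533 ± 497 in OPC and 3823 ± 912 in astrocyte controls (SD) and did not pass the test against EC controls, at -0.18 (adjusted p = 0.33). The differences of the list were largest against OPC controls, with a median of -2.13, and smallest against EC controls, with a median of -0.49.

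Of 13 immediate early and 12 interferon-stimulated genes, 0 were higher or lower than each type, against 10.9% of all genes higher and 1.55% lower than each, shares under which lists of this length hold few such genes. Among immediate early genes, 3 were called higher and 4 lower pooled, against 37.9% and 26.3% of all genes. Btg2 and Zfp36 lay above all OPC and astrocyte controls and overlapped with EC controls. Btg2 had 47.4 to 112 CPM in pericyte controls, against 41.7 to 110 in EC, 11.2 to 20.1 in OPC and 23.1 to 29.4 in astrocyte controls. Zfp36 had 19.2 to 44.1 CPM, against 18.6 to 29.5, 11.6 to 14.7 and 10.7 to 18.3 in that order. Fos averaged 14.1 ± 4.25 CPM in pericyte controls, against 84.9 ± 17.0 in EC, 6.91 ± 3.09 in OPC and 81.5 ± 19.1 in astrocyte controls (SD). Jun averaged 44.4 ± 14.8 CPM in pericyte controls, against 79.1 ± 19.6 in EC, 220.2 ± 24.3 in OPC and 116 ± 17.8 in astrocyte controls (SD). Interferon-stimulated genes were lower than in EC controls in 11 of 12 cases, against 26.1% of all genes, and higher than in OPC controls in 5 cases, near the 42.0% of all genes. Ifit3 averaged 82.1 ± 43.2 CPM in pericyte controls, against 272 ± 46.9 in EC, 55.0 ± 23.3 in OPC and 184 ± 58.7 in astrocyte controls (SD). Ifitm3, the exception against EC controls, averaged 445 ± 289 CPM in pericyte controls, against 425 ± 111 in EC, 17.7 ± 5.88 in OPC and 267 ± 66.4 in astrocyte controls (SD).

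Of 15 chemokine, cytokine and adhesion genes, 9 were called higher pooled, 6 without control 6 and 4 without controls 6 and 8, and 2, Il34 and Ccl11, were higher than each type. The 2 are near the 10.9% of all genes higher than each type, and 37.9% of all genes were called higher pooled. Il34, a ligand of the CSF1 receptor of microglia, had 173, 286 and 467 CPM in pericyte controls. EC controls had 38.8, 39.0, 45.8, 41.3 and 35.4 CPM, OPC controls 10.3, 12.8 and 17.6 CPM and astrocyte controls 10.6, 13.9 and 15.7 CPM. All pericyte libraries were above all others, and the log2 fold change was 3.83 ± 0.15 (SE; adjusted p = 1.51e-16) pooled, with 2.77 against EC, 4.39 against OPC and 4.33 against astrocyte controls. Ccl11 (eotaxin) was low, at 0.523, 5.03 and 16.6 CPM in pericyte controls against at most 0.26 CPM in any other library, and astrocyte controls held 3 counts in all. Cx3cl1, the neuronal chemokine fractalkine, was lower pooled, with a log2 fold change of -0.73 (adjusted p = 0.0024), but not against each type. Without control 6 it was -2.14 against EC and -1.26 against astrocyte controls, and 0.48 (adjusted p = 0.035) against OPC controls. Among 12 genes of phagocytosis and lysosomes, 6 were called higher pooled, against 37.9% of all genes. Spp1 (osteopontin) and Lpl (lipoprotein lipase) were higher than each type, beside 10.9% of all genes. Without controls 6 and 8, 3 were called higher and 3 lower, and 1 was higher than each type. Spp1 had 160.3, 715 and 1822 CPM in pericyte controls. EC controls had 56.8, 53.2, 54.8, 46.8 and 55.9 CPM, OPC controls 8.07, 16.4 and 28.1 CPM and astrocyte controls 13.2, 16.9 and 84.4 CPM. Its lowest pericyte library was above every other library, but the 7 differed among themselves, with controls 8 and 6 highest. Lpl had 620.3 CPM in control 6 and 30.9 to 175 CPM in the other 6, and its pooled log2 fold change of 3.04 was 1.94 without control 6. Axl, a receptor for phosphatidylserine-bridging proteins, averaged 377 ± 93.8 CPM in pericyte controls, against 22.5 ± 4.87 in EC, 61.0 ± 14.2 in OPC and 337 ± 99.6 in astrocyte controls (SD), and did not pass the test against astrocyte controls (0.16, adjusted p = 0.52).

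Markers of other cell types were present in the pericyte controls at the following summed levels. Endothelial markers summed to 288 to 468 CPM in pericyte controls, against 2233 to 3716 CPM in EC, 36.5 to 55.0 CPM in OPC and 12.8 to 52.2 CPM in astrocyte controls. Of these markers 11 of 12 were lower than in EC controls, against 26.1% of all genes. Members of the list were not alike. Esam and Emcn overlapped with EC controls, at 61.9 to 269 CPM against 203.5 to 334 CPM for Esam and 26.5 to 239 CPM against 43.9 to 88.4 CPM for Emcn. Cldn5, the tight junction claudin, averaged 13.8 ± 6.06 CPM in pericyte controls, against 528 ± 148 in EC, 1.94 ± 1.58 in OPC and 3.15 ± 1.89 in astrocyte controls (SD). Pecam1, an adhesion molecule of endothelium, averaged 5.64 ± 3.28 CPM in pericyte controls, against 140.5 ± 26.5 in EC, 0.506 ± 0.522 in OPC and 1.59 ± 0.781 in astrocyte controls (SD). Both were lower than in EC controls (-5.25 and -4.64). Astrocyte markers summed to 1443 to 3047 CPM in pericyte controls, against 2327 to 4588 CPM in EC, 843 to 1180 CPM in OPC and 25250 to 57990 CPM in astrocyte controls. All 10 were lower than in astrocyte controls, against 23.5% of all genes. OPC markers summed to 631 to 1053 CPM in pericyte controls, against 148 to 354 CPM in EC, 13090 to 15660 CPM in OPC and 266 to 374 CPM in astrocyte controls, so that every pericyte library lay below the OPC controls and above the EC and astrocyte controls. Cspg4 (NG2), a proteoglycan shared by precursors and pericytes, averaged 155 ± 63.9 CPM in pericyte controls, against 3.00 ± 0.434 in EC, 379.8 ± 43.9 in OPC and 9.60 ± 4.10 in astrocyte controls (SD).

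Mature oligodendrocyte markers were high in every group: 14060 to 47090 CPM in pericyte controls, against 8388 to 17160 CPM in EC, 106600 to 125900 CPM in OPC and 4197 to 8581 CPM in astrocyte controls. Neuronal markers summed to 1032 to 2641 CPM in pericyte controls, against 6323 to 8590 CPM in EC, 453 to 1108 CPM in OPC and 1886 to 3068 CPM in astrocyte controls. Microglial markers summed to 359 to 2710 CPM in pericyte controls, at most 956 CPM without control 8, against 156 to 246 CPM in EC, 104 to 203 CPM in OPC and 694 to 1094 CPM in astrocyte controls. Tmem119 was the 1 of 12 microglial markers higher than each type, at 98.0 ± 53.5 CPM in pericyte controls, against 4.26 ± 0.906 in EC, 7.95 ± 4.32 in OPC and 48.8 ± 12.9 in astrocyte controls (SD), and 0 were without control 6. All 12 were called higher pooled, against 37.9% of all genes, with a median log2 fold change of 1.62, which was 0.88 without controls 6 and 8. Against astrocyte controls 1 was called higher, 1 lower and 10 were not called, with a median log2 fold change of -0.04. Of 8 border macrophage and monocyte markers, Pf4 and F13a1 were higher than each, beside 10.9% of all genes. Their means were 0.994 CPM for Pf4 and 2.31 CPM for F13a1 in pericyte controls. The pooled log2 fold change of Pf4 was 3.87 without control 6, in place of 4.54. Neutrophil markers did not pass the filter (0 of 6), lymphocyte markers summed to at most 2.91 CPM and red blood cell markers to at most 32.5 CPM in pericyte controls. The part of these RNAs in the differences above was not tested.

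**Figure D5:**
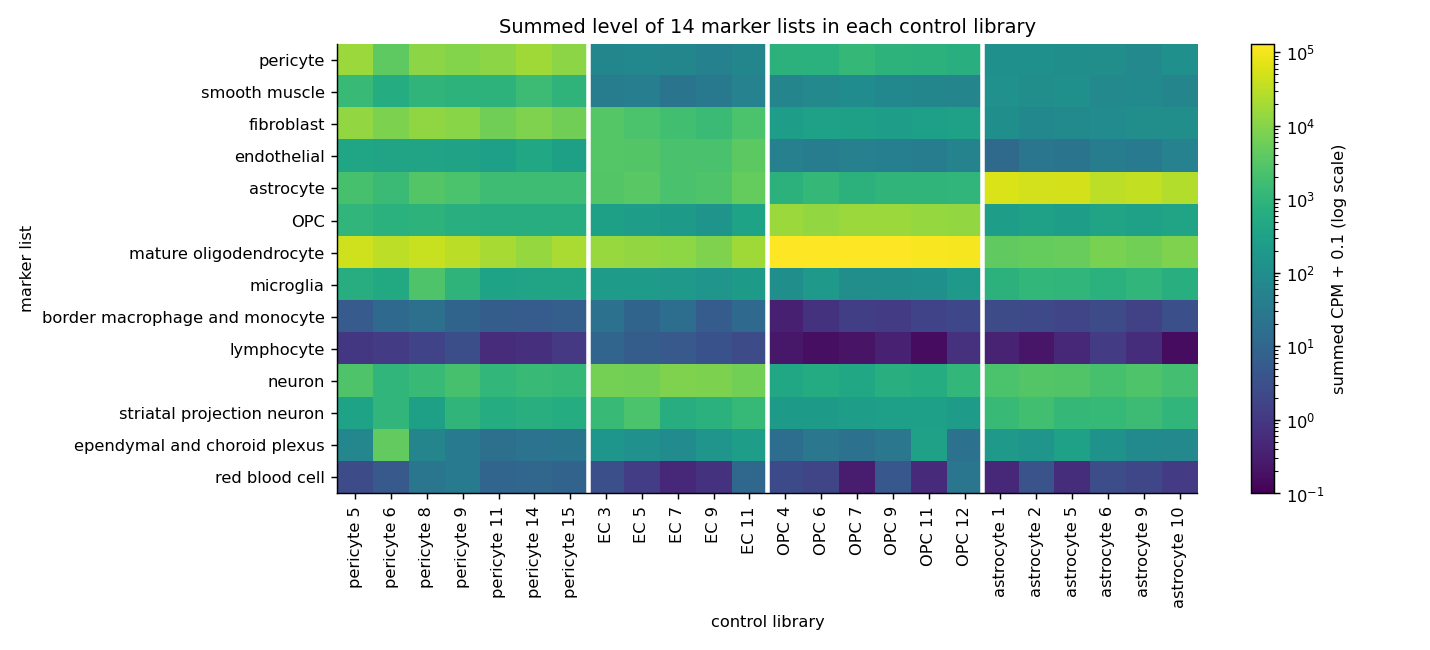
Summed CPM of 14 marker lists (rows, log colour scale) in the 24 control libraries (columns; white lines part the cell types); the neutrophil list, with 0 genes tested, is left out. The pericyte row is at 3919 to 17680 CPM in pericyte libraries and 684 to 1213 CPM in OPC libraries, and the ependymal and choroid plexus row is brightest in pericyte control 6.

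For the 8 genes that varied most, the 7 pericyte libraries differed among themselves mainly through single libraries. Of 10358 genes at 10 CPM or more, the median SD of log2(CPM + 1) was 0.37, and the 8 genes with the largest SD were Dpep1, Ttr, Alpl, Fcgr1, Tcf21, Mmp3, Igha and Igkc. Control 6 was highest for 4 of them. It had 1048 CPM of Dpep1 (a membrane dipeptidase) against at most 4.09 CPM in the other 6 libraries, 4269 CPM of Ttr (transthyretin, the main secreted protein of the choroid plexus) against at most 30.8 CPM, and 3577 CPM of Alpl (alkaline phosphatase) against at most 16.7 CPM. Without control 6, the pooled log2 fold change of Alpl was -1.39 in place of 4.90, and that of Ttr -0.40 in place of 5.13. Kl (klotho), another gene of the choroid plexus, had 91.3 CPM in control 6, and its pooled log2 fold change was 2.72 without it, in place of 3.89. Both values also moved with OPC control 11 and with astrocyte control 5: the pooled log2 fold change was 6.34 and 6.46 for Ttr, and 4.90 and 4.65 for Kl, without these libraries.

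Control 9 was highest for Fcgr1 (the high-affinity Fc receptor), at 421 CPM, Igha at 138 CPM and Igkc at 99.3 CPM, the immunoglobulin chains of plasma cells. Without control 9 the pooled log2 fold changes were 3.14 for Fcgr1, 1.84 for Igha and 0.28 for Igkc, in place of 4.85, 6.26 and 3.43, and those of Igha and Igkc were no longer called. Control 8 was highest for Mmp3 (stromelysin), at 94.2 CPM, followed by control 9 at 36.1 CPM, while the other 5 libraries had at most 0.0671 CPM. The EC controls held 76.9 to 959 CPM of Igkc, a range that includes control 9, and the log2 fold change against EC was -5.11 (adjusted p = 0.0026). Controls 11 and 15 were closest to each other. Their counts differed by a mean chi-square of 15.8 per gene, against 115.5 or more for every other pair of pericyte libraries. Other types also held close pairs: astrocyte controls 2 and 5 were at 23.3 and OPC controls 9 and 11 at 26.4. The rank correlation of levels was 0.9849 for pericyte controls 11 and 15, and 0.9851 for astrocyte controls 1 and 2. The value of 15.8 was above sampling noise, but separate libraries of the same RNA can also differ by more than sampling noise. It therefore cannot show whether pericyte controls 11 and 15 are separate samples, and the pericyte group may hold the same sample 2 times. They were kept as 2 libraries. With their counts summed, 13915 genes were called against the types pooled, in place of 14788. Genes higher than each type then numbered 2201, in place of 2513. By the same chi-square, controls 5, 8 and 9 were closer to each other (132.6 to 146.6) than to controls 11, 14 and 15 (275.9 to 452.3). Pairs within controls 11, 14 and 15 were at 15.8 to 129.3. Mature oligodendrocyte markers summed to 47090, 40390 and 29970 CPM in controls 5, 8 and 9. In controls 11, 14 and 15 they summed to 20630, 14060 and 21260 CPM. The cause of this split was not tested.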

How the data were processed

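Gene counts of 24 control libraries were used. Per the labels' protocols, RNA was extracted with NucleoSpin RNA XS and libraries were made with SMART-Seq v4, which does not mark strand and has no molecular identifiers. The authors deposited whole-number counts per gene, 1 table per cell type. The submitters' processing notes name bcl2fastq 2.20, STAR, HTSeq and GRCm38. Versions of STAR and HTSeq, and the annotation, were not stated, and column names refer to hisat. Columns without a sample numbered 0. The 147 rows without a gene symbol (at most 0.0484% of counts) were tested where they passed the filter, but were not named.

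From the counts, genes were filtered with filterByExpr, scaled by trimmed means of M-values over the 24 libraries and compared by edgeR's quasi-likelihood F-test (edgeR 4.0.16, R 4.3.3), where each cell type had 1 mean and there was no covariate. P-values were adjusted by Benjamini-Hochberg over all 23060 genes tested. The filter, scaling, tool (DESeq2 1.42.0), replicate block, equal weighting of types and each library in turn were varied. Levels were compared between genes per exon length within a pair only. The share of mitochondrial reads could not be used, since 37 mitochondrial genes held 0 counts.

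The rule for named genes took Pdgfrb, Rgs5 and Kcnj8, the 12 genes furthest above and the 8 furthest below each other type (at least 10 CPM, no predicted genes or pseudogenes), up to 4 highest and 2 lowest called members of each pathway list, all paralogue pairs, the first 3 markers of each cell type and the 8 genes of largest SD among pericyte libraries. Other list members named were chosen after their values were seen. The lists and members were chosen with earlier results of these data known. Some list members are not reported here.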

Additional observations from a re-analysis of the deposited data

Results flagged for a closer look

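Single libraries far from the rest of their group were looked for in the summed marker lists of all 4 groups and in the pericyte levels of 143 of the genes named. Of 203 sets of values, 48 held such a library, and 25 of the 48 were pericyte control 6. Chance gives about 1 in 20 for genes chosen without regard to such spread. That share is no measure here, since the genes include 8 named for their large SD among the pericyte libraries and others that control 6 carries.

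Pericyte control 6 was the highest of the 7 pericyte libraries, apart from the others, for genes of the choroid plexus (Ttr and Kl) and for others. Summed ependymal and choroid plexus markers stood at 4431 CPM and summed neutrophil markers at 0.791 CPM. Single genes were Ttr at 4269 CPM, Kl at 91.3, Alpl at 3577, Dpep1 at 1048, Tcf21 at 401, Inmt at 1753, Lum at 1359, Cpz at 139, Alx4 at 113, Aox3 at 184 and Pdgfra at 438 CPM. Signalling genes were Cxcl12 at 2393 CPM, Igfbp7 at 4136, Tgfbr3 at 143, Angpt2 at 49.2, Id1 at 117, Id3 at 1290.0 and Avpr1a at 47.4 CPM. Others were Lpl at 620.3 CPM, Nr2f2 at 230, Abcg2 at 75.4 and Pf4 at 3.20 CPM. Flt1 was lowest there, at 11.7 CPM.

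Pericyte control 8 stood apart in summed microglial markers, at 2710 CPM, and in Col3a1 at 775, Col4a1 at 414, Col4a2 at 236, Fn1 at 52.6, Mmp3 at 94.2, Ccl11 at 16.6 and F13a1 at 5.28 CPM. Control 9 did so in Fcgr1 at 421, Igha at 138 and Igkc at 99.3 CPM. Control 5 did so in Slc6a13 at 565, Dner at 48.5 and Cnn1 at 4.23 CPM, control 14 in Bmp5 at 22.3 and Gucy1a1 at 157 CPM, and control 15 in Meox2 at 0.240 CPM.

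Among the other types, OPC control 12 was highest in summed neuronal (1108 CPM), lymphocyte (0.657 CPM) and red blood cell markers (25.4 CPM). OPC control 11 was highest in ependymal and choroid plexus markers, at 308 CPM, and EC control 11 in red blood cell markers, at 11.1 CPM. Astrocyte control 9 was lowest in summed pericyte markers, at 76.3 CPM.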

How the results depend on the processing

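The counts of called genes kept within 1.5 times of those reported under every other filter, scaling and tool run, with these exceptions. Whether replicate numbers pair the samples was left unsettled. Over 9 same-numbered pairs the correlations of their deviations ran from -0.323 to 0.244, and 3 were over 0.1. For 2 pairs the same-numbered library was the best match in its group. So few pairs cannot show whether the numbers pair the samples. With the replicate number as a block, 9134 genes were called pooled, 8333 against EC and 4915 against astrocyte controls, and 850 were higher than each type; the cause was not tested. With library totals alone, 109 genes were lower than each type, as the median difference moved to 0.64. Leaving out 1 library at a time gave 13839 to 14996 genes pooled, 12946 to 14041 against EC, 15113 to 16205 against OPC and 10019 to 12515 against astrocyte controls, with 2009 to 3007 higher and 319 to 450 lower than each type. Without pericyte controls 6 and 8, 14398 genes were called pooled, an alternative chosen after seeing the data.

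Pooled differences that changed sign among those 143 genes, for which the cause was not tested, were as follows. With the 17 libraries as 1 group, where types weigh by their number of libraries, they were -1.24 for Pdgfra, -0.019 for Abcc8, -2.90 for Pecam1, -1.34 for Flt1, -3.34 for Igkc, -0.92 for Kdr, -2.39 for Tek, -2.80 for Abcb1a, -0.98 for Pdgfb, -1.36 for Dll4, -0.66 for Id3, -1.54 for Tie1 and -0.26 for Lama5. With library totals alone they were 0.26 for Kcnj11, 0.28 for Cldn5, 0.045 for Id1 and 0.00053 for Abcg2. With the replicate block they were 0.22 for Cldn5, -0.18 for Alpl, -0.55 for Dll4 and -0.045 for Lama5. DESeq2 gave -1.13 for Alpl. Summing controls 11 and 15 gave 0.029 for Cldn5. With 1 library left out at a time the ranges were -0.26 to 0.065 for Cldn5, -0.062 to 0.43 for Pecam1, -0.40 to 6.46 for Ttr, -1.39 to 5.12 for Alpl and -0.087 to 0.67 for Id3, with the lowest value of the last 3 without control 6. Without controls 6 and 8 they were -0.81 for Ttr, -1.90 for Alpl and -0.18 for Id3. Depth limits only the rarest genes.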
